A study of Mus musculus with 9 samples.

Results

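The mouse mitochondrial genome is a small circular DNA molecule present in many copies per cell, and the 37 genes encoded on it were described here across all 9 libraries of a mouse stroke experiment. They are the rows placed on chromosome MT of a table of 55385 genes: 13 protein-coding rows (mRNA), 2 ribosomal RNA rows (rRNA) and 22 transfer RNA rows (tRNA). Male C57BL/6 mice of 8 to 10 weeks were used in all groups. For tMCAO, a transient occlusion that models ischemic stroke, blood flow in the right middle cerebral artery was blocked by a filament for 90 min before reperfusion. Animals of the celastrol group were occluded likewise and were given 4.5 mg/kg of celastrol, a triterpenoid found in plants, intraperitoneally as reperfusion started. The sham group had the surgery without closure of the artery. Each group has 3 libraries made from total RNA of the operated hemisphere after depletion of ribosomal RNA. The sources used here state neither the time from reperfusion to sampling, nor any vehicle, nor how many animals stand behind a library. All p-values therefore refer to the spread between libraries, which may be technical. In RNA from a whole hemisphere, fewer cells of a type and less RNA per cell cannot be told apart.

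Mitochondrial DNA is transcribed inside the organelle by its own polymerase into long transcripts from both strands. These are cut at the tRNAs that lie between most of the other genes, which releases the mRNAs and rRNAs. The mRNAs encode core subunits of respiratory chain complexes I, III and IV and of ATP synthase, and the rRNAs and tRNAs serve their translation by mitochondrial ribosomes. All other proteins of the organelle, including the polymerase and most respiratory chain subunits, are encoded in the nucleus.

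The genes are packed from base 1 to base 15422 of chromosome MT (mm10), and some share bases. mt-Atp8 and mt-Atp6, which encode ATP synthase subunits, share 43 bases (7927 to 7969), and mt-Nd4l and mt-Nd4, which encode complex I subunits, share 7. The shared stretches and the tRNA genes named most often below are printed because the counts of adjoining rows come from reads over these bases. They are from GENCODE M21 transcripts on GRCm38, 5′ to 3′ on the gene's own strand. Capitals mark the mt-Atp6 start codon, the bases shared by mt-Nd4l and mt-Nd4, and the anticodon of each tRNA.
mt-Atp8 and mt-Atp6 shared stretch: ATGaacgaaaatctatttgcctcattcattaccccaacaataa
mt-Nd4l and mt-Nd4 junction: ctactacaATGCTAAaaattattcttccct
mt-Ti: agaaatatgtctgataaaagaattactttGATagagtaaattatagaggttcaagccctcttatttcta
mt-Tq: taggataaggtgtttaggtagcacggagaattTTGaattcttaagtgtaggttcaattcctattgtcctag
mt-Tm: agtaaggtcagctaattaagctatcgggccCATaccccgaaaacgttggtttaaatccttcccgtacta
mt-Th: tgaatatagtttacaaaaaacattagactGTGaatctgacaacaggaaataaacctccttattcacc
mt-Tl2: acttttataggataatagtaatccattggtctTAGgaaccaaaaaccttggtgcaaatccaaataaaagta
mt-Ti (isoleucine), mt-Tq (glutamine) and mt-Tm (methionine) follow one another between mt-Nd1 and mt-Nd2. They span bases 3706 to 3774 on the plus strand, 3772 to 3842 on the minus strand and 3845 to 3913 on the plus strand. mt-Th (histidine) and mt-Tl2 (leucine) lie between mt-Nd4 and mt-Nd5 with mt-Ts2 between them. mt-Nd6 and 8 of the tRNAs are encoded on the minus strand. The sources used here do not state whether counting used strand, so reads from a gene and from RNA antisense to it cannot be told apart.

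Library totals ran from 60392960 to 75158625 counts. The 37 rows held 7.39%, 7.15% and 6.91% of all counts in sham 1 to 3, 6.73%, 6.69% and 6.60% in tMCAO 1 to 3, and 6.89%, 6.79% and 5.80% in celastrol 1 to 3. The means were 7.15% ± 0.242 in sham, 6.67% ± 0.0657 in tMCAO and 6.49% ± 0.601 in celastrol (SD, n = 3). Every tMCAO library lay below every sham library. Celastrol 1 and 2 lay between the tMCAO and the sham libraries, and celastrol 3 had the lowest share of the 9. The celastrol mean minus the tMCAO mean was -0.184 percentage points with celastrol 3 and 0.162 without it.

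The 3 RNA classes held very unequal parts of these counts. The mRNA rows made up 89.3% to 91.4% of mitochondrial counts, the rRNA rows 8.37% to 10.5% and the tRNA rows 0.213% to 0.2465%. Relative to the whole library, the mRNA rows held 6.71%, 6.47% and 6.19% in sham, 6.15%, 6.02% and 5.94% in tMCAO and 6.21%, 6.16% and 5.18% in celastrol. The sham and tMCAO values did not overlap, and the lowest sham value, 6.19%, was close to the highest tMCAO value. The rRNA rows held 0.667%, 0.668% and 0.698% in sham, 0.563%, 0.655% and 0.645% in tMCAO and 0.661%, 0.605% and 0.607% in celastrol. tMCAO 1 was the lowest of these. Depletion targets rRNA, so the rRNA rows show what remained after it. The tRNA rows held 0.0182%, 0.0165% and 0.0159% in sham, 0.0156%, 0.0163% and 0.0160% in tMCAO and 0.0147%, 0.0165% and 0.0142% in celastrol, and all groups overlapped.

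**Figure D1:**
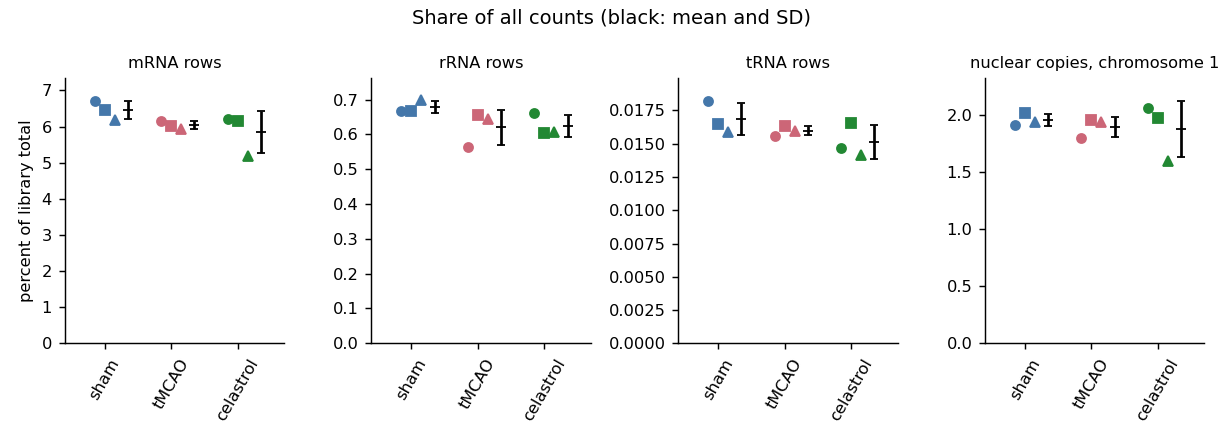
Share of the library total (percent, axes from 0) taken by mitochondrial mRNA, rRNA and tRNA rows and by their nuclear copies on chromosome 1. Circles, squares and triangles are replicates 1, 2 and 3 of each group, and black marks give the mean and SD. The mRNA share was 6.19% to 6.71% in sham and 5.94% to 6.15% in tMCAO, and celastrol 3 was the lowest at 5.18%.

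Levels between genes are given per length as FPKM (fragment counts scaled by gene length and library size), the mean ± SD over all 9 libraries. mt-Co1, the catalytic subunit of complex IV, was highest at 12147 ± 836 FPKM and exceeded the next gene in 9 of 9 libraries. The other complex IV subunits were mt-Co2 at 5395 ± 428 and mt-Co3 at 4978 ± 455. mt-Cytb, the mitochondrial subunit of complex III, stood at 5403 ± 334 FPKM. The complex I subunits spread widely, from mt-Nd1 at 5646 ± 469 through mt-Nd2 at 3330 ± 386, mt-Nd4 at 3298 ± 224, mt-Nd6 at 2149 ± 139, mt-Nd4l at 2052 ± 129 and mt-Nd5 at 1970 ± 133 down to mt-Nd3 at 1121 ± 111. mt-Atp8 stood at 4398 ± 389 FPKM. mt-Atp6 was between 1065 and 6122 FPKM and is described separately. It and mt-Co1, mt-Co2, mt-Co3, mt-Nd3, mt-Nd4 and mt-Nd4l have near-identical nuclear copies, described below. Reads from such stretches cannot be placed by sequence, so the levels of these mRNAs and their places in the order depend on the counting program. mt-Rnr1 and mt-Rnr2, the rRNAs of the small and large mitochondrial ribosomal subunits, stood at 2476 ± 212 and 2093 ± 122 FPKM.

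Several neighbours in this order changed places between libraries. mt-Nd1 exceeded mt-Cytb in 7 of 9 libraries, mt-Cytb exceeded mt-Co2 in 6, and mt-Nd2 exceeded mt-Nd4 in 5. mt-Rnr2 exceeded mt-Nd4l in 6 of 9. By contrast mt-Co2 exceeded mt-Co3, mt-Co3 exceeded mt-Atp8 and mt-Atp8 exceeded mt-Nd2 in 9 of 9 libraries each. The nuclear copies Gm28661 and Gm28437 held 0.827 to 0.988 times the counts of mt-Co2 and 0.881 to 0.993 times those of mt-Co3. The places of these rows therefore depend on how reads were split from the copies. Apart from mt-Atp6, the SD of each mRNA and rRNA was small beside the distance from mt-Co1 to mt-Nd3.

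**Figure D2:**
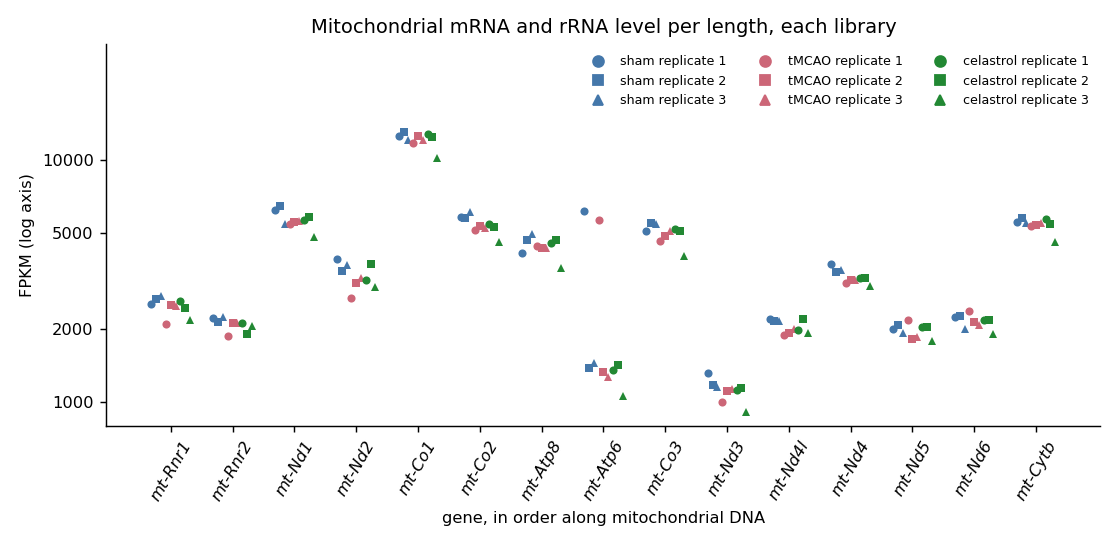
FPKM (log axis) of the 13 mRNA and 2 rRNA rows in each library, in order along mitochondrial DNA. Colour gives the group and the symbol gives the replicate. mt-Co1 is highest at 12147 ± 836 FPKM over the 9 libraries, and mt-Atp6 stands at a high level in sham 1 and tMCAO 1 only.

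The tRNA rows are 59 to 75 bases long, against inserts of 300 ± 50 bases sequenced as 2 reads of 150 bases. Fragments of that size run into the adjoining genes, so a tRNA row need not measure the mature tRNA. mt-Te (glutamate), which adjoins mt-Nd6 on the minus strand, had the highest tRNA level at 651 FPKM and 2945 to 4248 counts. mt-Tl1 (leucine), between mt-Rnr2 and mt-Nd1, followed at 291 FPKM and mt-Tn (asparagine) at 173 FPKM. At the other end, mt-Tf (phenylalanine) had 45 to 100 counts, mt-Tv (valine) 27 to 49, and mt-Ts2 (serine) 1 or 2 counts in 8 libraries and 27 in sham 3. The 8 minus-strand tRNAs held 62.6% to 67.6% of all tRNA counts. mt-Ts2 reached 0.5 FPKM in fewer than 3 libraries and was not tested, which left 36 of the 37 rows in the fits.

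The comparison of tMCAO with sham asks which genes differ after occlusion and reperfusion. No mitochondrial row passed an adjusted p of 0.05 with edgeR's quasi-likelihood test (0 of 36), and neither did any gene in the table (0% of 16982 genes tested). At an unadjusted p under 0.05 there were 6 of 36 rows (16.7%), against 14.9% of all genes tested in either direction. All 6 were lower in tMCAO, against 6.36% of genes lower and 8.56% higher. The count was 3 without sham 1, sham 3 or tMCAO 1 and 4 without sham 2, tMCAO 2 or tMCAO 3. It was 7 without celastrol 1 and 8 without celastrol 2 or celastrol 3. In these fits the count over all genes varied too, from 1556 of 16721 without tMCAO 1 to 2761 of 16847 without celastrol 2. Other settings gave 3 rows with quantile scaling, against 2389 of 16982 genes, and 10 with DESeq2, against 2974 of 16982. The fit of only these 2 groups gave 12 rows, against 2790 of 16982 genes. Without celastrol 2, edgeR called 90 genes of the table and still 0 mitochondrial rows. DESeq2 called 3 of 36 rows (8.33%), all lower, against 4.93% of genes in either direction and 1.65% lower, and limma on log2(FPKM + 0.5) called 0. On counts scaled to a common library size (CPM) by the trimmed mean of M values (TMM), 15 of 36 rows (41.7%) had every tMCAO library below every sham library, against 11.1% of genes. None of the 36 had every tMCAO library above sham, against 12.4% of genes. On CPM of the plain library total the first count was 11 of 36 (30.6%), against 5.99% of genes. Mitochondrial rows come from long shared transcripts, and adjoining rows can share reads. Counts of rows and of their signs, here and below, are therefore not counts of separate observations, unlike what a share of all genes may imply.

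None of the 13 mRNAs passed the test. Their log2 fold changes were between -0.38 and -0.08 with a median of -0.22, beside 0.01 for all genes tested. With quantile scaling the median was 0 and 5 of 13 were below 0, and the tRNA median was -0.34. That scaling gives a row that keeps its rank in every library a change of 0. It therefore cannot show a shift that leaves the ranks of the mRNAs unchanged. With plain library totals the median of all genes moved to 0.11 and that of the mRNAs to -0.12, with 12 of 13 below 0. The 2 rRNAs had a median of -0.23 and the 21 tested tRNAs a median of -0.19, with 19 of 21 below 0. Of all genes tested, 49.1% had a log2 fold change below 0. Without sham 1 and tMCAO 1, which stand apart for mt-Atp6 as described below, edgeR called 0 rows and the mRNA median was -0.26. In that fit 2 rows had an unadjusted p under 0.05, against 1723 of 16500 genes.

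Among the complex I mRNAs, mt-Nd2 had the most negative change. Its TMM-scaled CPM was 4598, 4326 and 4520 in sham, 3099, 3573 and 3626 in tMCAO, and 3576, 4602 and 3473 in celastrol. The sham and tMCAO libraries did not overlap, and celastrol 2 stood at the sham level. Its log2 fold change in tMCAO against sham was -0.38 ± 0.14 (SE; unadjusted p = 0.0242, edgeR adjusted p = 0.279). mt-Nd4 was at 5863, 5672 and 5719 CPM in sham, 4733, 4892 and 4730 in tMCAO, and 4824, 5381 and 4641 in celastrol. Its 3 sham libraries were above all 6 others, with a tMCAO log2 fold change of -0.27 ± 0.11 (edgeR adjusted p = 0.320, DESeq2 adjusted p = 0.0313). mt-Nd4l, which overlaps mt-Nd4, had a log2 fold change of -0.26 ± 0.11 (edgeR adjusted p = 0.308). mt-Nd3 stood at -0.26 ± 0.12, mt-Nd1 at -0.22 ± 0.14, mt-Nd5 at -0.14 ± 0.13 and mt-Nd6 at -0.08 ± 0.12, all with edgeR adjusted p of 0.353 or more.

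The mRNAs of the other complexes gave changes of similar size, and none passed the test. For complex IV, log2 fold changes were -0.26 ± 0.12 for mt-Co2, -0.24 ± 0.14 for mt-Co3 and -0.15 ± 0.15 for mt-Co1. mt-Cytb was at -0.15 ± 0.13 and mt-Atp8 at -0.17 ± 0.14. mt-Rnr1 and mt-Rnr2 were at -0.26 ± 0.12 and -0.21 ± 0.11, and for both every tMCAO library lay below every sham library.

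**Figure D3:**
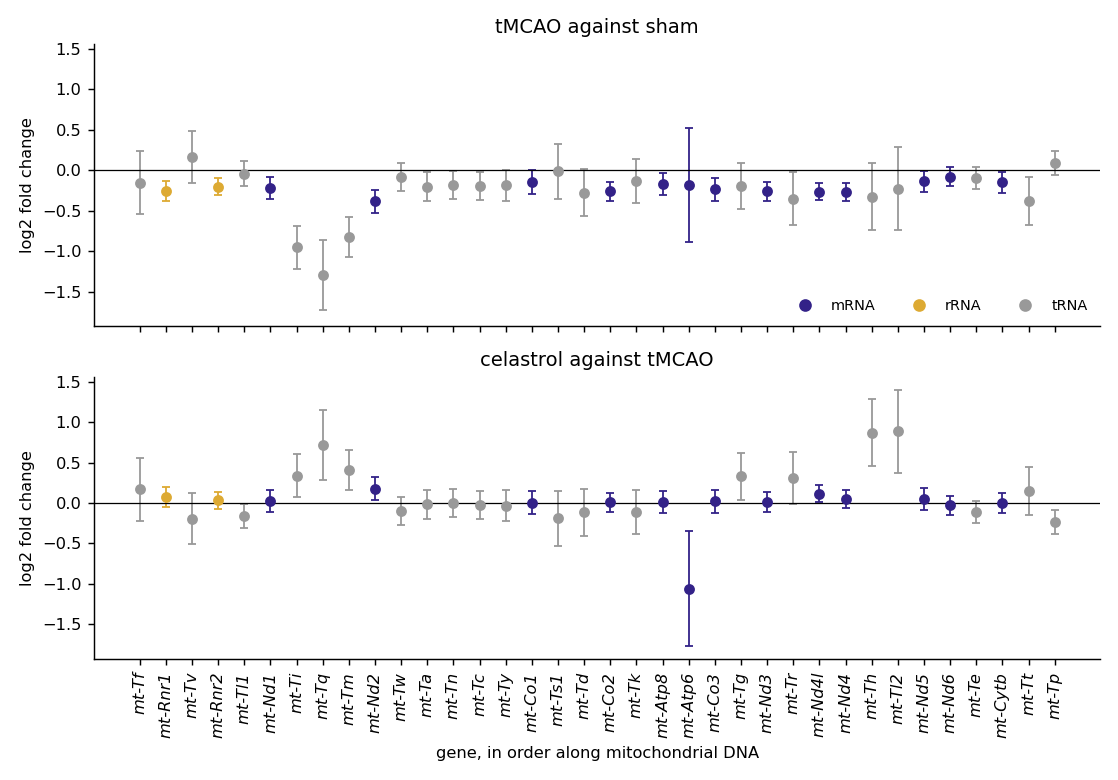
Log2 fold change from edgeR with its standard error for each of the 36 tested rows, in order along mitochondrial DNA, for tMCAO against sham (upper) and celastrol against tMCAO (lower). Colour gives the RNA class. In the upper panel the 13 mRNAs lie between -0.38 and -0.08, and the adjoining mt-Ti, mt-Tq and mt-Tm lie lowest.

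The 3 lowest log2 fold changes in tMCAO belonged to the adjoining tRNA genes mt-Ti, mt-Tq and mt-Tm printed above. mt-Ti was at 3.99, 3.99 and 4.88 CPM in sham, 1.61, 2.57 and 2.44 in tMCAO, and 2.23, 3.12 and 3.02 in celastrol. All 6 occluded libraries were below all 3 sham libraries. The log2 fold change in tMCAO was -0.95 ± 0.27 (SE; edgeR unadjusted p = 0.00616, adjusted p = 0.190; DESeq2 adjusted p = 0.0149), from 118 to 286 counts per library.

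mt-Tq was at 2.51, 2.47 and 3.10 CPM in sham, 0.492, 1.59 and 1.21 in tMCAO, and 1.48, 2.49 and 1.42 in celastrol. tMCAO 1 had only 36 counts and was the lowest library, and celastrol 2 stood within the sham range. Its log2 fold change in tMCAO was -1.29 ± 0.44 (edgeR adjusted p = 0.243), -0.94 without tMCAO 1 and -1.66 without tMCAO 2. mt-Tm was at 10.98, 9.56 and 12.8 CPM in sham, 4.66, 8.15 and 6.05 in tMCAO, and 7.91, 10.03 and 7.03 in celastrol. tMCAO 1 was again lowest, and the log2 fold change was -0.82 ± 0.25 (edgeR adjusted p = 0.208, DESeq2 adjusted p = 0.0353). All 3 tRNAs had an unadjusted p under 0.05 in 9 of 9 fits that left out 1 library, and no adjusted p under 0.05 in any of them. These tRNAs were named for the smallest p-values of the tRNA rows in this contrast. The 9 fits share most of their libraries, so they are not separate support. The genes on either side, mt-Nd1 at -0.22 and mt-Nd2 at -0.38, had smaller changes on the log2 scale. The 3 rows adjoin one another, and reads over their borders can enter more than one of them, so they are not separate measurements.

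**Figure D4:**
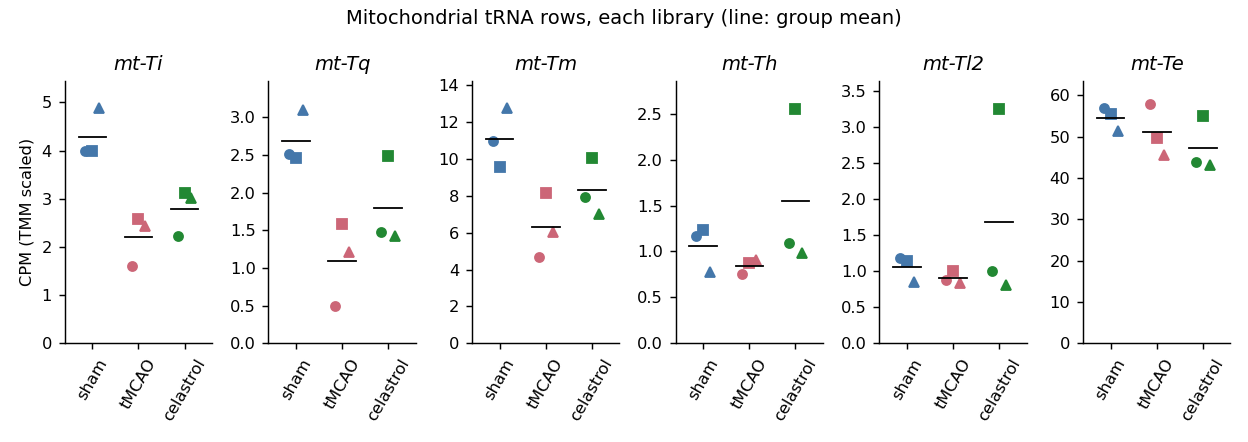
TMM-scaled CPM (axes from 0) of 6 tRNA rows in each library. Circles, squares and triangles are replicates 1, 2 and 3, and lines give group means. For mt-Ti, mt-Tq and mt-Tm every tMCAO library is below every sham library, mt-Th and mt-Tl2 are high in celastrol 2 only, and mt-Te, the most abundant tRNA row, overlaps between groups.

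The comparison of celastrol with tMCAO asks what differs when the occluded animals received the drug. With edgeR 0 of 36 rows passed an adjusted p of 0.05, and neither did any gene (0% of 16982). Unadjusted p was under 0.05 for 0 of 36, against 4.11% of genes, and DESeq2 called 0 of 36. With edgeR, 2 rows had an unadjusted p under 0.05 without tMCAO 2, against 951 of 16788 genes. Without celastrol 3 there were 2 rows, against 1022 of 16779 genes, and without celastrol 1 there was 1, against 1070 of 16700. In each of these fits edgeR called 0 rows. No row had every celastrol library below every tMCAO library, against 4.13% of genes, and 1 row (2.78%), mt-Th, had every celastrol library above, against 3.73%. Median log2 fold changes were 0.01 for the mRNAs, 0.05 for the rRNAs and -0.02 for the tRNAs.

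mt-Th and mt-Tl2 had the largest positive changes in this comparison, and celastrol 2 was the highest library for both. mt-Th was at 0.752, 0.872 and 0.913 CPM in tMCAO and at 1.09, 2.56 and 0.989 in celastrol. mt-Tl2 was at 0.874, 1.01 and 0.835 CPM in tMCAO and at 0.998, 3.25 and 0.804 in celastrol. Celastrol 2 held 162 counts of mt-Th and 206 of mt-Tl2, against 45 to 84 and 49 to 85 in the other libraries. The log2 fold changes were 0.87 ± 0.42 and 0.89 ± 0.51 (edgeR adjusted p = 0.976 for both). Without celastrol 2 they were 0.30 and -0.01. The 3 tRNAs next to mt-Nd2 had log2 fold changes against tMCAO of 0.71 ± 0.43 for mt-Tq, 0.40 ± 0.25 for mt-Tm and 0.34 ± 0.27 for mt-Ti (edgeR adjusted p = 0.976 for each).

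Celastrol and sham were compared as well, and this contrast shares its libraries with the other 2. With edgeR 0 of 36 rows passed, against 0.00589% of genes (1 of 16982), and DESeq2 called 0 of 36. At an unadjusted p under 0.05 there was 1 row (2.78%), mt-Ti at -0.62 ± 0.27 (edgeR adjusted p = 0.570), against 8.51% of genes in either direction and 2.81% lower. This count was 8 without celastrol 2, against 2100 of 16847 genes, and there edgeR called 43 genes and 0 mitochondrial rows. It was 0 without sham 1, sham 2, tMCAO 3, celastrol 1 or celastrol 3. In those fits the count over all genes ran from 811 of 16700 without celastrol 1 to 1653 of 16779 without celastrol 3. The rows with every celastrol library below every sham library were mt-Rnr2, mt-Ti, mt-Co2, mt-Nd3 and mt-Nd4, 5 of 36 (13.9%) against 5.54% of genes. No row had every celastrol library above sham, against 7.89% of genes. Medians were -0.20 for the mRNAs, -0.18 for the rRNAs and -0.20 for the tRNAs.

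mt-Atp6 differed between libraries in a way that did not follow the groups. It had 341292, 66519 and 67280 counts in sham, 311480, 72694 and 60200 in tMCAO and 72104, 73289 and 61751 in celastrol. Sham 1 and tMCAO 1 thus stood at 4343 to 4685 CPM of the library total, and the other 7 libraries at 822 to 1114, with a 3.90-fold gap between the lowest of the former and the highest of the latter. In those 7 libraries the mt-Atp6 count was 0.974 to 1.03 times that of mt-Atp8, with which it shares the 43 bases printed above, and in sham 1 and tMCAO 1 it was 4.94 and 4.26 times as high. Relative to mt-Co3, its neighbour on the other side, the FPKM ratio was 1.20 and 1.22 in the high libraries and 0.251 to 0.278 in the others.

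The group contrasts of mt-Atp6 rested on these high libraries. Its log2 fold change in tMCAO against sham was -0.19 (edgeR adjusted p = 0.928), 0.85 without sham 1, -1.28 without tMCAO 1 and -0.26 ± 0.19 without both. In celastrol against tMCAO it was -1.06, and 0.03 without tMCAO 1. In celastrol against sham it was -1.25, and -0.21 without sham 1. The whole mitochondrial share without mt-Atp6 was 6.92% ± 0.126 in sham, 6.46% ± 0.152 in tMCAO and 6.39% ± 0.587 in celastrol, in the same order as with it.

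The nucleus holds copies of mitochondrial DNA that the table lists as separate genes, and 7 of them lie in 1 block on chromosome 1 (mm10, 24611535 to 24616197). Gm10925 (24613974 to 24614651) matched mt-Atp6 with no difference over 678 of its 681 bases. It was at 4307, 4567 and 4399 CPM of the library total in sham, 4273, 4526 and 4396 in tMCAO and 4847, 4722 and 3593 in celastrol. In sham 1 and tMCAO 1, where mt-Atp6 was high, Gm10925 was the lowest of its group by a small margin, and celastrol 3 was lower still. The sum of both rows was 8992 and 8616 CPM in sham 1 and tMCAO 1 against 4415 to 5896 in the other 7. Whether the mt-Atp6 level reflects how reads were assigned between these rows was not tested.

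**Figure D5:**
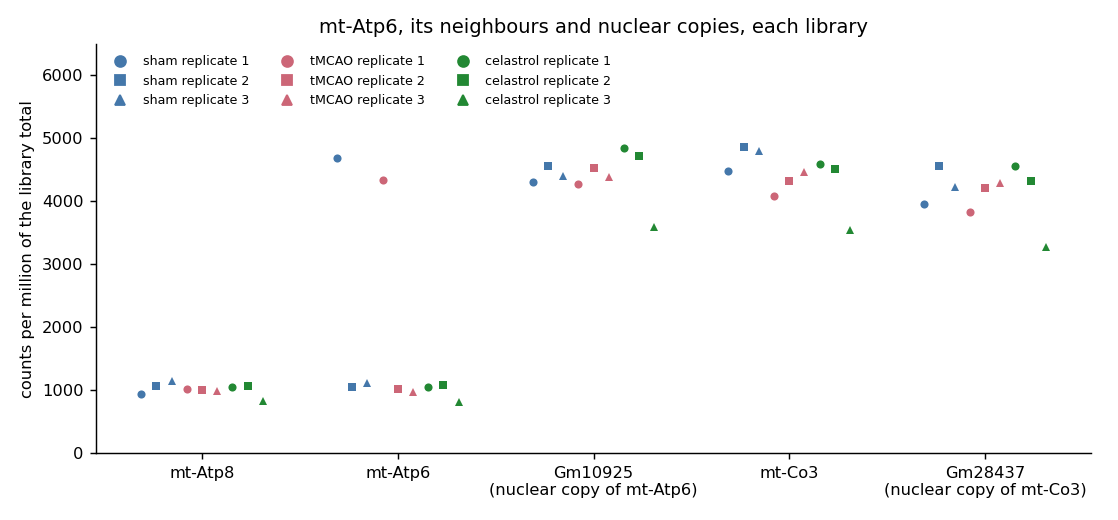
CPM of the library total (axis from 0) of mt-Atp6, the adjoining mt-Atp8 and mt-Co3, and the nuclear copies Gm10925 and Gm28437 in each library. Colour gives the group and the symbol gives the replicate. mt-Atp6 is at 4343 to 4685 in sham 1 and tMCAO 1 and at 822 to 1114 in the other 7, while the other 4 rows have no such gap.

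Other members had near-identical copies in the same block. Gm28661 matched mt-Co2 at 100% over 681 bases, Gm28437 matched mt-Co3 at 100% over 783, Gm28439 matched mt-Nd4 at 100% over 876 and Gm10222 matched mt-Nd4l at 100% over 294. Gm29216 matched mt-Co1 at 99.8% over 483 bases and Gm28438 matched mt-Nd3 at 99.7% over 345. Together the copies on chromosome 1 held 1.92%, 2.02% and 1.94% of all counts in sham, 1.80%, 1.96% and 1.94% in tMCAO and 2.06%, 1.97% and 1.60% in celastrol. Celastrol 3 was lowest here, as it was for the mitochondrial rows. Reads from such stretches cannot be placed by sequence, so the levels of these 7 mRNAs are uncertain, and their split from the copies is that of the counting program. mt-Nd1, mt-Nd5, mt-Nd6, mt-Cytb, mt-Atp8 and both rRNAs had no match of at least 90% identity over at least 50 bases in any nuclear row with more than 100 counts.

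The sum of mitochondrial rows and listed nuclear copies held 9.32%, 9.18% and 8.86% of counts in sham, 8.53%, 8.66% and 8.55% in tMCAO and 8.96%, 8.77% and 7.40% in celastrol. The sham and tMCAO values did not overlap in this sum either. Of the nuclear copies, 0 of 11 tested passed in tMCAO against sham with edgeR, DESeq2 or limma, 0 had an unadjusted p under 0.05, and their median log2 fold change was -0.21. Gm28439 at -0.22 ± 0.11 and Gm10222 at -0.22 ± 0.11 had changes close to those of mt-Nd4 and mt-Nd4l. The matched sequences are identical, so a copy and its member are not separate measurements. Not every pair was as close. Mean CPM of the library total was 4517 in sham and 4043 in tMCAO for mt-Co2, and 4001 and 3853 for its copy Gm28661.

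Ratios within the genome compare genes that share their library's scaling. The count ratio of mt-Nd6, the only minus-strand mRNA, to mt-Nd5, the plus-strand mRNA it overlaps by 14 bases, was 0.320, 0.308 and 0.295 in sham, 0.309, 0.334 and 0.320 in tMCAO and 0.304, 0.303 and 0.303 in celastrol. The celastrol values lay within the sham range and below all tMCAO values. The log2 differences were 0.06 for tMCAO against sham (exact permutation p = 0.3), -0.08 for celastrol against tMCAO (exact p = 0.1) and -0.02 for celastrol against sham (exact p = 0.7), two-sided. The ratio of mt-Rnr2 to mt-Rnr1, whose genes are separated only by mt-Tv, was 1.45, 1.34 and 1.35 in sham, 1.49, 1.40 and 1.41 in tMCAO and 1.34, 1.302 and 1.57 in celastrol. Its log2 differences were 0.05 (exact permutation p = 0.3), -0.03 (exact p = 0.8) and 0.02 (exact p = 1.0) in the same order of contrasts. With 3 libraries against 3 an exact p cannot go below 0.1, and adjusted over the 6 comparisons the p-values were 0.6 to 1.0.

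The nuclear genes that serve mitochondrial DNA and RNA were read in fixed lists in tMCAO against sham, and edgeR called none of them. Their counts at an unadjusted p under 0.05 are to be read against 8.56% of all genes higher and 6.36% lower. The 10 transcription genes had a median log2 fold change of -0.10, with 0 at an unadjusted p under 0.05 and 0 called by DESeq2 or limma. The smallest p-values there were those of Mterf1a, a termination factor (0.48 ± 0.22, edgeR adjusted p = 0.353), Polrmt, the mitochondrial RNA polymerase (-0.15 ± 0.12, edgeR adjusted p = 0.579), and Tefm, an elongation factor (0.24 ± 0.21, edgeR adjusted p = 0.628). The 20 RNA processing and stability genes had a median of 0.05, with 1 of 20 at an unadjusted p under 0.05 and 0 called by DESeq2 or limma. That gene was Grsf1, an RNA-binding protein of mitochondrial RNA granules (0.32 ± 0.14, edgeR adjusted p = 0.322), followed by Pnpt1, a polynucleotide phosphorylase (0.26 ± 0.13), and Elac2, which trims the 3′ ends of tRNAs (0.28 ± 0.16).

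Genes of mitochondrial DNA maintenance (11 tested) had a median of 0.12, with 2 of 11 higher at an unadjusted p under 0.05, against 8.56% of genes, and 0 called by DESeq2 or limma. They were Ssbp1, which binds single-stranded mitochondrial DNA (0.36 ± 0.15, edgeR adjusted p = 0.319), and Primpol, a primase and polymerase (0.54 ± 0.23, edgeR adjusted p = 0.326). Polg, the mitochondrial DNA polymerase, was at -0.31 ± 0.15. The 7 biogenesis regulators had a median of 0.04, none with an unadjusted p under 0.05 and 0 called by DESeq2 or limma. The smallest p-values in that list were those of Nrf1 (0.43 ± 0.25), Pprc1 (0.35 ± 0.21) and Ppargc1b (-0.45 ± 0.31).

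The translation lists and the nuclear respiratory chain subunits were larger. Of 77 mitochondrial ribosomal proteins, 2 were higher and 2 lower at an unadjusted p under 0.05 with a median of -0.03. Mrps6, a small-subunit protein, was at 19.0 ± 2.35 CPM in sham and 43.6 ± 3.59 in tMCAO, a log2 fold change of 1.20 ± 0.29 (edgeR adjusted p = 0.150). DESeq2 called Mrps6 and no other gene of the list, and limma called 0. Mrpl52 was at 0.48 ± 0.19, Mrps11 at -0.33 ± 0.14 and Mrpl32 at -0.56 ± 0.24. The 17 mitochondrial aminoacyl-tRNA synthetases, which charge the tRNAs, had a median of -0.04, 0 at an unadjusted p under 0.05 and 0 called by DESeq2 or limma. The lowest p-values among them were those of Tars2 (-0.30 ± 0.15), Aars2 (-0.34 ± 0.19) and Rars2 (0.23 ± 0.13).

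Of 80 nuclear-encoded respiratory chain subunits, 65 had a log2 fold change below 0, against 49.1% of all genes, with a median of -0.09 beside -0.22 for the mitochondrial mRNAs and 0.01 for all genes. At an unadjusted p under 0.05, 3 of 80 were lower and 0 higher, against 6.36% and 8.56% of genes. Atp5j2, an ATP synthase subunit, was at 90.6 ± 6.76 CPM in sham and 60.3 ± 3.77 in tMCAO, a log2 fold change of -0.59 ± 0.13 (edgeR adjusted p = 0.130). DESeq2 called Atp5j2 alone of the 80, and limma called 0. Cox6c, of complex IV, was at -0.48 ± 0.17 and Cyc1, of complex III, at -0.25 ± 0.10. In celastrol against tMCAO the medians of these lists ran from -0.07 for transcription to 0.13 for the synthetases, and edgeR, DESeq2 and limma called no gene of any of them. At an unadjusted p under 0.05 in that contrast, against 4.11% of genes, stood 1 ribosomal protein, Mrps6 at -0.66 ± 0.28 (edgeR adjusted p = 0.976), and 2 complex IV subunits, Cox6c at 0.41 ± 0.17 and Cox4i1 at -0.48 ± 0.19 (edgeR adjusted p = 0.976 for both).

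Markers of neurons, astrocytes and oligodendrocytes, the cells that make up most of a brain hemisphere, were above 0 in all libraries. Of the 11 marker lists, the sums of neurons, reactive astrocytes, endothelium and neutrophils did not overlap between sham and tMCAO, and those of the other 7 did. The 6 neuronal markers, none at 0 in any library, summed to 5725 to 6086 CPM of the library total in sham, 4779 to 5593 in tMCAO and 4832 to 6933 in celastrol, with 5 of 6 log2 fold changes below 0 in tMCAO (median -0.28). Every tMCAO library was below every sham library in this sum, as in the mitochondrial share. The 4 reactive astrocyte markers, none at 0, summed to 145.0 to 317, 1145 to 2334 and 582 to 2002 CPM in the same order, with 4 of 4 higher in tMCAO at an unadjusted p under 0.05, against 8.56% of genes. The 4 endothelial markers, none at 0, summed to 145 to 149, 168 to 221 and 154 to 279 CPM. Their directions in tMCAO were split, with 3 log2 fold changes above 0 and 1 below. At an unadjusted p under 0.05, 1 was higher and 1 lower, against 8.56% and 6.36% of genes. The 5 neutrophil markers, of which 4 were at 0 in some library and 1 of these in every library, summed to 0.685 to 1.89, 6.52 to 15.004 and 7.90 to 25.8 CPM. The 5 choroid plexus markers, of which 2 were at 0 in some library, summed to 7.10 to 42.2, 8.52 to 496 and 5.89 to 1835 CPM, with overlap. Celastrol 2 had the highest neuronal sum, 6933, and the lowest reactive astrocyte sum of the occluded libraries, 582. In celastrol 1 to 3 the neuronal sums were 4945, 6933 and 4832 CPM, and the mitochondrial shares were 6.89%, 6.79% and 5.80%. The part of these cell types in the mitochondrial values was not tested.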

How the data were processed

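RNA of 9 mouse hemisphere libraries was measured by sequencing. The authors deposited 1 table of 55385 genes with a whole-number count and an FPKM per library. The submitters' processing notes name mm10 as the build, HISAT2 2.0.4 and StringTie 1.3.4d beside cutadapt 1.9, and the packages DESeq2 and edgeR. Their settings, the sharing of multiply mapped reads and the rounding of counts are not stated there. An FPKM of 0 was deposited as 0.0001.

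Genes with at least 0.5 FPKM in at least 3 libraries (16982) were tested on the deposited counts with edgeR 4.0.16 (quasi-likelihood, TMM scaling, all 9 libraries in 1 fit, Benjamini-Hochberg adjustment, threshold 0.05). Standard errors were derived from the fold change and its F statistic. Ratios were tested by exact permutation. Alternatives were DESeq2 1.42.0, limma 3.58.1 on log2(FPKM + 0.5), with 0.1 as another pseudocount, other scalings and filters, fits of 2 groups, a replicate block and fits without 1 library. The fit was run on simulated data with larger changes than those of the mRNAs in tMCAO against sham. The simulated spread was below the common estimate of the real fit, so the run does not show whether changes of this size would be found. Sequences were matched with blastn 2.17.0.

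The members and lists were chosen with earlier results of these data known. Named were all mRNA and rRNA rows, the tRNA rows with the 3 highest and 3 lowest mean counts and the 3 smallest p-values in tMCAO against sham and in celastrol against tMCAO, and per nuclear list the 3 smallest p-values. The nuclear copies matching a member and the genes behind counts of 5 or fewer were named after their values were seen. Same-numbered libraries had deviations correlated between -0.156 and 0.198, so the numbers were not taken to pair them. Totals of 60392960 to 75158625 counts make counting error small for the mRNAs, and tRNA rows with under 100 counts are the least precise.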

Additional observations from a re-analysis of the deposited data

How the results depend on the processing

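Of 213 values obtained under alternatives for 15 results, 204 stayed within the spread between replicates, within 1.5 times a count, or in the same direction for the tested ratios. Of these, 6 changed sign, all in celastrol against tMCAO: the share difference without celastrol 3, and the mRNA median with library totals, with FPKM at both pseudocounts and without celastrol 1 or celastrol 2. Some of the 204 could hardly move. A replicate block cannot change a difference of mean shares or mean log2 ratios, and FPKM ratios follow count ratios within a library. For counts and medians, some fits left out a library outside the contrast. DESeq2 called 3 mitochondrial rows in tMCAO against sham where edgeR called 0. Quantile scaling brought the median log2 fold change of the mRNAs to 0 in tMCAO against sham and to -0.043 in celastrol against sham. It gives every library the same set of values, so it cannot show a shift that leaves ranks unchanged. As a share of summed FPKM, which weights short genes more, the difference in mitochondrial share was -1.78 percentage points in tMCAO against sham and -2.18 in celastrol against sham, beside -0.476 and -0.660 for counts.

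Without 1 library at a time, the median of the mRNAs ran from -0.23 to -0.20 in tMCAO against sham, from -0.07 to 0.10 in celastrol against tMCAO and from -0.28 to -0.11 in celastrol against sham. The share differences ran from -0.598 to -0.356, from -0.382 to 0.162 and from -0.858 to -0.314 percentage points. The log2 ratio of mt-Rnr2 to mt-Rnr1 ran from -0.12 to 0.018 in celastrol against tMCAO (0.018 without celastrol 2) and from -0.065 to 0.070 in celastrol against sham (below 0 without sham 2, -0.0025, and without celastrol 3, -0.065). That of mt-Nd6 to mt-Nd5 ran from -0.049 to 0.0081 in celastrol against sham (0.0081 without sham 1). The cause was not tested.

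With the replicate block, no mitochondrial row was called in any contrast and the mRNA medians were -0.22, 0.01 and -0.20; the replicate numbers are not known to pair animals. Over all genes the calls in tMCAO against sham, celastrol against tMCAO and celastrol against sham were 0, 0 and 1 as reported, 836, 19 and 380 with DESeq2, 51, 0 and 22 with the replicate block, 30, 0 and 4 in fits of 2 groups, 19, 0 and 11 with quantile scaling, 0, 0 and 3 without a filter and 0, 0 and 2 at 1 FPKM. Chosen after seeing the data, the newer edgeR form gave 2, 0 and 6, and leaving out sham 1 and tMCAO 1 together gave 2, 0 and 2. Depth limits the tRNA rows most: mt-Tv had 27 to 49 counts.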
